A study of Mus musculus with 9 samples.

Results

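Genes for the storage, uptake and breakdown of iron and heme were followed in mouse embryonic fibroblasts, cultured connective tissue cells. The members were 10 genes fixed by name (Fth1, Ftl1, Ncoa4, Slc40a1, Tfrc, Steap3, Slc11a2, Hmox1, Aco1 and Ireb2), found by matching the Ensembl IDs of the deposited table to the GENCODE M21 annotation. All 10 were found, of 16428 genes in the table, and all 10 passed the filter on low values. Every library carried the genotype CARM1f/f ER-Cre, so that Carm1 is flanked by loxP sites and 4-hydroxytamoxifen (4-OHT) switches on the Cre recombinase. Carm1 encodes an arginine methyltransferase of histones and coactivators. The 3 CARM1i libraries came from cells kept for 6 days with 1 uM TP-064, an inhibitor of that enzyme. The 3 KO libraries came from cells kept for 6 days with 2 uM 4-OHT. The 3 WT libraries came from cells kept for 6 days with no treatment. No group received 4-OHT without the floxed gene and none is labelled as vehicle, so 4-OHT and the deletion cannot be told apart, nor the inhibitor and its vehicle. The labels do not say whether replicates were separate cultures, so p-values measure only library-to-library spread, part or all of which may be technical. The labels give neither the number of embryos behind the cells nor the promoter that drives the recombinase.

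Totals ran from 28657018 to 35842771 reads per library. Carm1, counted over the whole gene, was 711 to 794 normalized reads in KO libraries, 986 to 1112 in CARM1i libraries and 1079 to 1143 in WT libraries, and it fell in KO (log2 fold change -0.54 ± 0.06 SE); since the floxed exons are not counted apart, this does not check the deletion in full. All 6 fibroblast markers were present, with a summed level of 208548 to 231147 in CARM1i, 177353 to 187863 in KO and 237501 to 244810 in WT libraries. They did not move together: Col1a1, Col1a2, Pdgfra, Pdgfrb and Vim fell in KO, while Thy1 rose (log2 fold change 0.185 in KO and 0.275 in CARM1i). In CARM1i against WT, Col1a1 (-0.445) and Col1a2 (-0.193) fell too, and Pdgfra, Pdgfrb and Vim did not pass the test. All 4 endothelial markers were in the table, with a summed level of 239 to 262 in CARM1i, 288 to 341 in KO and 264 to 300 in WT libraries. Of 8 macrophage markers, 4 were in the table, with a summed level of 294 to 323 in CARM1i, 292 to 334 in KO and 253 to 318 in WT libraries. Ptprc and Adgre1, which define leukocytes and macrophages, were not among the genes analysed here, nor was any of 7 erythroid markers, the globin genes among them. Of 4 epithelial markers only Krt18 was present, at 111.9 ± 17.8 in KO, 39.2 ± 6.03 in CARM1i and 38 ± 13 in WT libraries. The part of these markers in the results on iron genes was not tested. CARM1i replicate 3 differed more from the other libraries of its group (chi-square per gene 7.87 and 8.46) than those differed from each other (3.18), so the calls of the main members and the list counts that change without it are also given without it.

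Cells take up transferrin-bound iron through the transferrin receptor, reduce it in the endosome, move it to the cytosol and store what is not used inside ferritin, a shell of heavy (H) and light (L) chains. Heme oxygenase frees iron from heme, and ferroportin exports iron. When iron is scarce, the iron regulatory proteins bind iron-responsive elements (IREs), short hairpins in messenger RNA. Bound to an IRE in the 5′ untranslated region (UTR) they block translation, as in both ferritin messages, and bound to the IREs of the 3′ UTR of Tfrc they protect that message from decay. Ferritin and heme oxygenase genes are also known targets of the transcription factor NRF2 and are repressed by the heme sensor BACH1.

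The elements of the members are shown here because they sort the genes by the regulation that reads iron. The search looked in annotated UTRs for a bulged C, any 5 bases, the loop CAGTGN and 5 more bases, with all 5 positions of the upper stem paired (G-T pairs allowed), on the message strand only. It found 7 elements in 4 of the 10 members. Over all genes, 31 of 20899 with a 5′ UTR (0.148%) and 129 of 21685 with a 3′ UTR (0.595%) held a match. The 6-base loop is in capitals, and the sequences, written as DNA, are those of the GENCODE M21 transcripts (mm10).
Fth1, 5′ UTR, chr19:9982732-9982760, plus strand: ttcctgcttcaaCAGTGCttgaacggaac
Ftl1, 5′ UTR, chr7:45459779-45459807, minus strand: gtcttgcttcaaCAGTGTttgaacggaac
Slc40a1, 5′ UTR, chr1:45925465-45925493, minus strand: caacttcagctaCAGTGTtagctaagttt
Tfrc, 3′ UTR, chr16:32631219-32631247, plus strand: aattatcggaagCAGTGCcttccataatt
Tfrc, 3′ UTR, chr16:32631598-32631626, plus strand: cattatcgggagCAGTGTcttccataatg
Tfrc, 3′ UTR, chr16:32631663-32631691, plus strand: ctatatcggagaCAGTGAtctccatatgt
Tfrc, 3′ UTR, chr16:32631710-32631738, plus strand: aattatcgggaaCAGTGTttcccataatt

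The elements of both ferritin genes were identical at 26 of 29 bases, counted from 1 at the 5′ end, with the differences T1G, C4T and C18T from Fth1 to Ftl1. The 4 elements of Tfrc were identical to each other at 18 to 25 of 29 bases, and to the Fth1 element at 9 to 11. No match says only that these letters are not in the annotated UTRs: Slc11a2 is known for an IRE with another bulge, in some of its transcripts only, and the table counts all transcripts of a gene together.

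In KO cells 6 of the 10 genes rose, none fell and 4 did not pass the test, against 41.9% of all 14560 tested genes that passed in either direction, 21.4% that rose and 20.5% that fell. The genes that rose were both ferritin chains, Hmox1, Steap3 and, by small amounts, Slc11a2 and Ncoa4. In CARM1i cells 4 rose, none fell and 6 did not pass, against 19.1% of all tested genes in either direction, 10.5% that rose and 8.59% that fell. These were the ferritin chains, Hmox1 and Steap3. Without CARM1i replicate 3 their log2 fold changes were 0.49 for Fth1, 0.20 for Ftl1, 0.49 for Steap3 and 0.46 for Hmox1, and all 4 still passed. All 4 were lower in CARM1i than in KO cells, where 23.6% of all tested genes differed in either direction, 12.1% being higher and 11.5% lower. The median log2 fold change over the 10 genes was 0.15 for KO over WT, beside -0.0043 over all tested genes. For CARM1i over WT it was 0.08, beside -0.0047, and for CARM1i over KO it was -0.16, beside -0.0021. The 10 genes were chosen with earlier results of these data known, so these counts and medians are no independent evidence. In bulk samples, fewer cells of a type and less RNA per cell cannot be told apart. Both comparisons with WT use the same 3 WT libraries. Fold changes come from limma on log2(normalized read count + 1) over all 9 libraries, with Benjamini-Hochberg adjustment over all tested genes and a threshold of 0.05; levels are normalized read counts as mean ± SD over n = 3 libraries.

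**Figure D1:**
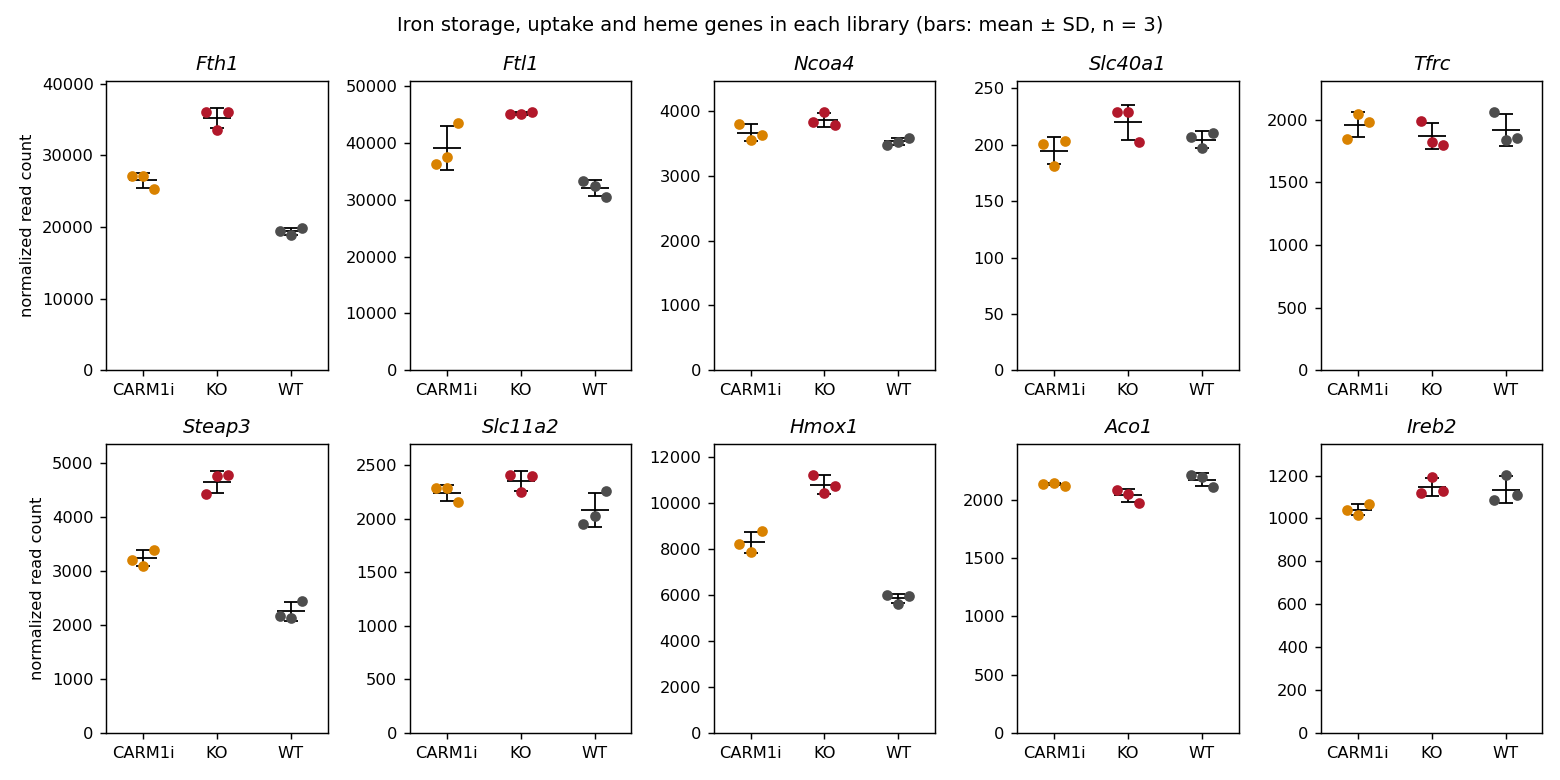
Normalized read count (vertical axes, from 0) of each of the 10 genes in every CARM1i, KO and WT library; points are libraries and bars are mean ± SD, n = 3. Fth1, Ftl1, Steap3 and Hmox1 form 3 separate levels with KO highest and WT lowest, though CARM1i replicate 3 lies near KO for Ftl1. The libraries of the groups overlap for Tfrc and Slc40a1.

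Fth1 encodes the ferritin H chain, which oxidizes iron for storage (ENSMUSG00000024661.6; mm10, chromosome 19, 9980598 to 9985098). Its level was 36055, 33560 and 36022 in KO replicates 1 to 3, against 19396, 18887 and 19871 in WT replicates 1 to 3. CARM1i replicates 1 to 3 had 27107, 27173 and 25321. No library of any group overlapped another group, with CARM1i between KO and WT. Fth1 rose to 35212 ± 1431 in KO, against 19385 ± 492 in WT, or 182% of the WT level (log2 fold change 0.86 ± 0.04 SE, limma adjusted p = 3.447e-12). In CARM1i it rose to 26534 ± 1051, or 137% of WT (0.45 ± 0.04, adjusted p = 1.626e-07) and lay below KO (log2 fold change -0.41 ± 0.04, adjusted p = 1.947e-07).

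Ftl1 encodes the L chain, which helps form the iron core (ENSMUSG00000050708.16; chromosome 7, 45457944 to 45459884). It measured 45095, 45020 and 45433 in KO libraries, against 33289, 32497 and 30459 in WT libraries, and 36291, 37581 and 43576 in CARM1i libraries. The groups did not overlap, but CARM1i replicate 3 lay much nearer to KO than the other CARM1i libraries did. Ftl1 rose in KO to 45183 ± 220, against 32082 ± 1460 in WT (log2 fold change 0.50 ± 0.05 SE, limma adjusted p = 3.187e-07), and in CARM1i to 39149 ± 3887 (0.28 ± 0.05, adjusted p = 0.0005934; 0.20 without CARM1i replicate 3). The difference of CARM1i from KO, -0.21 ± 0.05 (limma adjusted p = 0.005117), missed the threshold without the intensity trend (adjusted p = 0.08322). Without CARM1i replicate 3 this difference was -0.29 (limma adjusted p = 7.649e-07). Ftl1 has a near-identical copy, Ftl1-ps1, which can share its reads and measured 956 ± 150 in CARM1i, 1063 ± 54.9 in KO and 831 ± 85.6 in WT libraries; it too rose in KO (0.36 ± 0.09). On the opposite strand Ftl1 overlaps Gm10252, at 56.5 to 91.9 normalized reads on average per group. The strand setting of the counting is not given in the sources used here, so reads of the pair cannot be told apart, and the Ftl1 values are uncertain to that extent.

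The chains did not change by the same amount in KO. Reads of Fth1 per read of Ftl1 were 0.80, 0.745 and 0.793 in KO libraries, against 0.583, 0.581 and 0.652 in WT libraries, with no overlap. The CARM1i libraries had 0.747, 0.723 and 0.581, of which replicate 3 lay at the WT level. On the log2 scale the ratio was 0.37 higher in KO than in WT (exact two-sided permutation p = 0.1, the smallest that 3 against 3 libraries allow) and 0.17 higher in CARM1i than in WT (exact p = 0.4). The difference of CARM1i from WT was 0.28 without CARM1i replicate 3 and 0.10 without CARM1i replicate 1 (exact two-sided permutation p = 0.1 and 0.7, with 0.1 the smallest that 2 against 3 libraries allow).

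Ncoa4 encodes the receptor that carries ferritin to the lysosome for iron release (ENSMUSG00000056234.15; chromosome 14, 32159865 to 32179855). KO libraries had 3827, 3988 and 3783 normalized reads, against 3482, 3532 and 3594 in WT libraries. CARM1i libraries had 3809, 3557 and 3635. Every KO library was above every WT library, by little: Ncoa4 rose to 3866 ± 108 in KO, against 3536 ± 55.8 in WT (log2 fold change 0.13 ± 0.04 SE, limma adjusted p = 0.007641). This call was lost with quantile normalization (0.08, adjusted p = 0.08174). In CARM1i the difference from WT was 0.05 with a 95% interval of -0.024 to 0.13 (limma adjusted p = 0.3618).

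Slc40a1 encodes ferroportin, the iron exporter (ENSMUSG00000025993.10; chromosome 1, 45908068 to 45926523). It was the least abundant of the 10, at 229, 229 and 202 in KO, 200.4, 181 and 203 in CARM1i and 207, 197 and 211 in WT libraries. The groups overlapped. Neither contrast with WT passed, at 0.10 (95% interval -0.11 to 0.32, limma adjusted p = 0.4521) for KO and -0.07 (-0.29 to 0.14, adjusted p = 0.6884) for CARM1i. These intervals still include folds over WT from 0.926 to 1.24 in KO and from 0.82 to 1.10 in CARM1i. In macrophages Slc40a1 and Hmox1 serve the recycling of iron from red cells; of the 4 macrophage markers in the table, Cd68 rose in KO (86.0 ± 27.9, against 42.5 ± 12.4 in WT), Cd14 fell (109.2 ± 17.8, against 147 ± 17.7 in WT), and Csf1r and Mrc1 did not pass the test.

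Tfrc encodes the transferrin receptor, through which most cells take up iron (ENSMUSG00000022797.15; chromosome 16, 32608920 to 32632794). It measured 1993, 1820 and 1796 in KO, 1850, 2047 and 1981 in CARM1i and 2061, 1838 and 1852 in WT libraries. All groups overlapped, and the spread within a group was as wide as the distance between groups. The log2 difference was -0.04 for KO against WT (95% interval -0.15 to 0.08, limma adjusted p = 0.6318), 0.03 for CARM1i against WT (-0.08 to 0.15, adjusted p = 0.7429) and 0.07 for CARM1i against KO (-0.05 to 0.18, adjusted p = 0.4104). The intervals bound a fold between 0.902 and 1.06 for KO and between 0.945 and 1.11 for CARM1i, each over WT. Tfrc is known to be abundant in dividing cells. All 8 listed cell cycle genes fell in KO (median -1.17) and in CARM1i (median -0.46), beside 20.5% and 8.59% of all tested genes that fell. Rrm2 measured 1407 in KO and 2502 in CARM1i, against 3326 in WT, and Top2a, of DNA topology in dividing cells, 4855 in KO and 8752 in CARM1i, against 12914 in WT. The list also holds Rrm1 and Rrm2 of ribonucleotide reductase, an enzyme whose small subunit holds iron.

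Steap3 encodes the endosomal ferrireductase that reduces transferrin-borne iron, and is also described as a gene induced by p53 (ENSMUSG00000026389.16; chromosome 1, 120190757 to 120272705). Its log2 fold change was the largest of the 10 for KO over WT. For CARM1i over WT it was close to that of Hmox1, with intervals that overlapped, and below it without WT replicate 1 (0.50 for Steap3 and 0.52 for Hmox1). KO libraries had 4419, 4761 and 4785 normalized reads, against 2169, 2136 and 2451 in WT libraries. CARM1i libraries had 3210.2, 3097 and 3391. The groups formed 3 levels with no overlap. Steap3 rose 2.07-fold in KO, to 4655 ± 205, against 2252 ± 173 in WT (log2 fold change 1.05 ± 0.05 SE, limma adjusted p = 1.636e-11). In CARM1i it rose 1.44-fold, to 3233 ± 148 (0.52 ± 0.05, limma adjusted p = 1.236e-06), and stayed below KO (-0.53 ± 0.05, adjusted p = 4.985e-07).

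Slc11a2 encodes DMT1, which moves ferrous iron out of the endosome (ENSMUSG00000023030.16; chromosome 15, 100387898 to 100425072). It measured 2413, 2251 and 2398 in KO, 2288, 2285 and 2158 in CARM1i and 1956, 2025 and 2259 in WT libraries. WT replicate 3 overlapped the other groups, and the WT spread was the widest. Slc11a2 rose in KO to 2354 ± 89.5, against 2080.2 ± 159 in WT (log2 fold change 0.18 ± 0.05 SE, limma adjusted p = 0.007289). The call was lost without the intensity trend (adjusted p = 0.05283) and without WT replicate 1 (0.14, adjusted p = 0.05143). CARM1i against WT gave 0.11 ± 0.05 (limma adjusted p = 0.1406) and passed without WT replicate 3 (0.17, adjusted p = 0.01444).

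Hmox1 encodes the inducible heme oxygenase, which splits heme into iron, carbon monoxide and biliverdin (ENSMUSG00000005413.8; chromosome 8, 75093621 to 75100589). KO libraries had 11220, 10404 and 10730 normalized reads, against 5978, 5616 and 5957 in WT libraries. CARM1i libraries had 8194, 7874 and 8790. No group overlapped another, and the order was the same as for Fth1 and Steap3. Hmox1 rose to 10785 ± 411 in KO, or 184% of the 5850.2 ± 203 in WT (log2 fold change 0.88 ± 0.04 SE, limma adjusted p = 1.065e-11). In CARM1i it rose to 8286 ± 465, or 142% of WT (0.50 ± 0.04, limma adjusted p = 1.938e-07), and was lower than in KO (-0.38 ± 0.04, adjusted p = 2.03e-06).

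Aco1 and Ireb2 encode the iron regulatory proteins; Aco1 is also the cytosolic aconitase when it holds an iron-sulfur cluster. Aco1 (ENSMUSG00000028405.9; chromosome 4, 40143081 to 40198338) measured 2083, 2050.4 and 1973 in KO, 2132, 2138 and 2120.2 in CARM1i and 2213, 2191 and 2110 in WT libraries. Every KO library lay below every WT and CARM1i library, by a few percent. The KO mean was 93.7% of WT (log2 fold change -0.09 ± 0.04 SE, limma adjusted p = 0.05857), just short of the threshold, which it passed with the minimum mean at 50 (adjusted p = 0.04645), after rescaling libraries to equal totals (0.02457), with quantile normalization (0.01503), with edgeR (0.04902) and without WT replicate 3 (0.03703). CARM1i differed from WT by -0.03 (95% interval -0.11 to 0.05). Ireb2 (ENSMUSG00000032293.8; chromosome 9, 54863789 to 54912530) measured 1117, 1194 and 1128 in KO, 1039, 1015 and 1068 in CARM1i and 1084, 1204 and 1111 in WT libraries. The CARM1i libraries were the 3 lowest. Ireb2 differed by 0.02 in KO against WT (95% interval -0.09 to 0.13, limma adjusted p = 0.8157), by -0.12 ± 0.05 in CARM1i against WT (limma adjusted p = 0.1147) and by -0.14 ± 0.05 in CARM1i against KO (adjusted p = 0.0605). The last passed with quantile normalization (adjusted p = 0.03584) and without CARM1i replicate 3 (adjusted p = 0.0458).

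**Figure D2:**
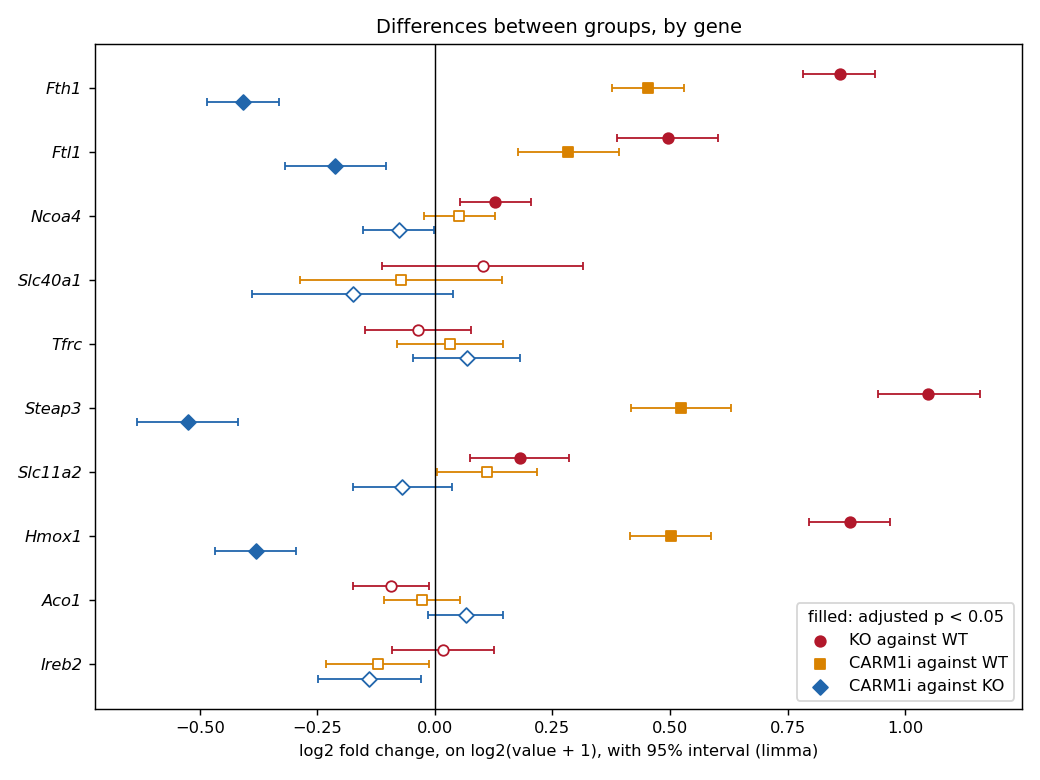
Log2 fold change of each gene (horizontal axis, on log2(value + 1), with the 95% interval from limma) for KO over WT, CARM1i over WT and CARM1i over KO; filled symbols passed an adjusted p of 0.05. Steap3, Hmox1, Fth1 and Ftl1 stand apart from 0 in all 3 comparisons, and the intervals of Tfrc and Slc40a1 include 0 in all 3.

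Per transcript length, the level was highest for the ferritin messages. Levels are normalized reads per kb of the longest transcript that GENCODE tags as principal (0.968 kb for Ftl1, 1.494 kb for Fth1), so they depend on that choice. Ftl1 stood at 46676 ± 227 in KO, 40444 ± 4016 in CARM1i and 33142 ± 1508 in WT libraries. Fth1 followed at 23569 ± 958 in KO, 17760.2 ± 703 in CARM1i and 12975 ± 329 in WT libraries. Hmox1 came next at 6874 ± 262 in KO, 5281 ± 296 in CARM1i and 3729 ± 129 in WT libraries. The other 7 lay below 1000 in every group, down to Slc40a1 at 65.3 ± 4.58 in KO, 57.8 ± 3.56 in CARM1i and 60.7 ± 2.13 in WT libraries. In WT libraries the order after Hmox1 was Ncoa4 (870 ± 13.7), Slc11a2 (688 ± 52.5), Aco1 (567 ± 14.2), Steap3 (437 ± 33.6), Tfrc (392 ± 25.6), Ireb2 (196 ± 10.9) and Slc40a1, and Steap3 and Tfrc were the only neighbours whose libraries overlapped. In KO libraries Steap3 stood at 902 ± 39.7 per kb, above Slc11a2 (778 ± 29.6) and next below Ncoa4 (951 ± 26.5).

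**Figure D3:**
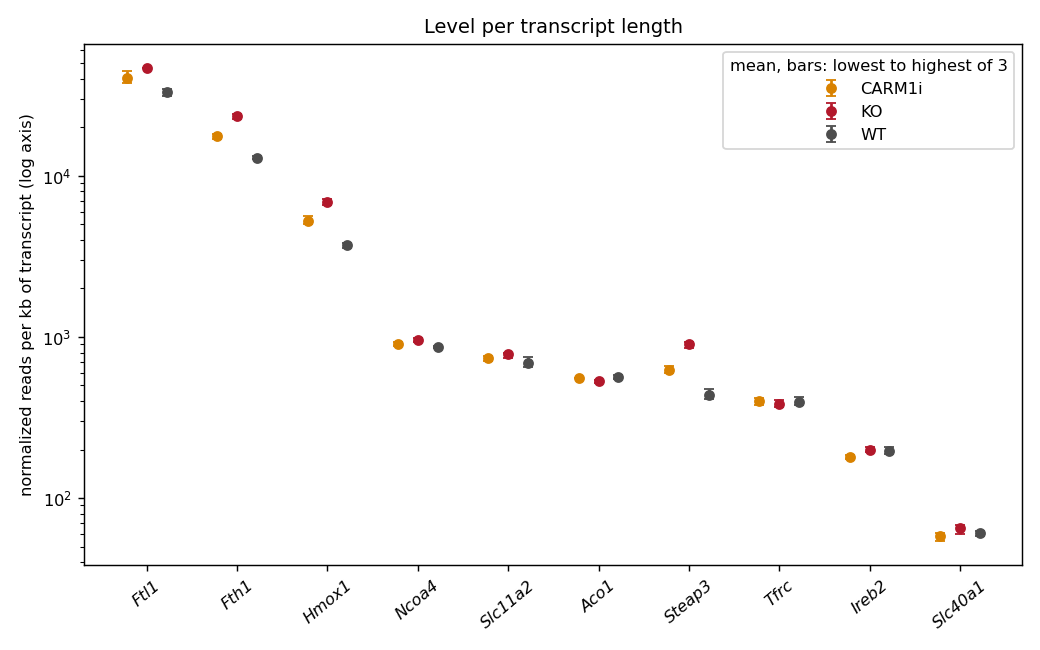
Normalized reads per kb of transcript (vertical log axis) for the 10 genes, ordered by their WT level; points are group means and bars run from the lowest to the highest of 3 libraries. The ferritin chains and Hmox1 lie above the other 7 genes in every group, and Steap3 is the gene whose position shifts most between groups.

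Patterns over the 9 libraries are a description, since the points share groups and libraries. Among 10334 protein-coding genes with a mean of at least 100 (provisional Gm and Rik names and the Y chromosome left out), those most like Fth1 by Pearson correlation of log2 levels were Spty2d1 (0.998), Gaa (0.995), the lysosomal alpha-glucosidase gene, and Hvcn1 (0.994), a proton channel gene. Those most like Hmox1 included Sgpl1 (0.997), which encodes the sphingosine phosphate lyase, and Litaf (0.996). Within the 10, the closest to Fth1 was Hmox1 (0.981) and the closest to Hmox1 was Steap3 (0.982). For Tfrc the highest were lower, at 0.877 for Fam172a, 0.871 for Dph3 and 0.853 for Ppp1r8, and its closest among the 10 was Aco1 (0.531). Tfrc passed no comparison between groups, and whether its correlations exceed those that ranking 10334 genes gives by chance was not tested.

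Of 19 other genes of iron transport, 17 were in the table and 14 were tested. In KO 4 rose, 1 fell and 9 did not pass (median 0.05), a share of 35.7% past the test beside 41.9% of all genes. Without CARM1i replicate 3 in the shared fit, the KO count was 4 higher and 2 lower. In CARM1i 3 rose, 1 fell and 10 did not pass (median 0.02), or 28.6% beside 19.1%, and without CARM1i replicate 3 the count was 4 higher and 1 lower. Slc25a37, which encodes mitoferrin, the importer of iron into mitochondria, rose to 1522 in KO and 1208 in CARM1i, against 934 in WT (log2 fold changes 0.71 ± 0.06 and 0.37 ± 0.06 SE). Mcoln1, a lysosomal channel gene that releases iron, rose to 911 in KO and 756 in CARM1i, against 616 in WT (0.56 ± 0.07 and 0.29 ± 0.07). The ferrireductase gene Steap2 rose to 18046 in KO and 16865 in CARM1i, against 15256 in WT (0.24 ± 0.03 and 0.14 ± 0.03). Slc25a37 and Mcoln1 were lower in CARM1i than in KO (-0.34 ± 0.06 and -0.27 ± 0.07), as was Steap2 (-0.10 ± 0.03), whose call was lost in 3 of 20 settings, with a value of -0.05 in the smallest. Pcbp2, which encodes an iron chaperone that is also an RNA-binding protein, fell by 0.19 ± 0.04 in KO and by 0.15 ± 0.04 in CARM1i. The transferrin gene itself, Trf, was not among the genes analysed here.

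Of 12 listed regulators of iron balance, 9 were in the table and 8 were tested. In KO 2 rose and 1 fell (median 0.09), or 37.5% past the test beside 41.9% of all genes. In CARM1i 1 rose (median 0.05), or 12.5% beside 19.1%; 2 rose without CARM1i replicate 3, and the count ran from 0 to 2 over the settings. Smad7, an inhibitor of the BMP pathway that controls hepcidin in liver, rose in KO (0.28 ± 0.05) and Smad6 fell (-0.34 ± 0.08). The small rise of Hif1a in KO (0.13 ± 0.05) and that of Herc2, a ligase that degrades NCOA4 protein, in CARM1i (0.14 ± 0.04) were each lost in several alternative settings, 7 of 20 for Hif1a and 6 of 20 for Herc2. Values for CARM1i against WT were 0.11 ± 0.05 for Smad7 and 0.08 ± 0.05 for Hif1a, neither past the test. In CARM1i against KO, Smad6 was higher (0.24 ± 0.08) and Smad7 was lower (-0.17 ± 0.05), calls lost in 6 and 3 of 20 settings, and Bmp6, at 14.96 normalized reads in CARM1i and 27.5 in KO, gave -0.80 ± 0.37, which did not pass.

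Of 12 listed genes of heme synthesis, 11 were tested. In KO 4 rose and 1 fell (median -0.05), or 45.5% past the test beside 41.9% of all genes. In CARM1i 3 rose and none fell (median 0.02), or 27.3% beside 19.1%. Alas1, whose enzyme is the rate-limiting step outside red cells, rose to 2081 in KO and 1951 in CARM1i, against 1657 in WT (log2 fold changes 0.33 ± 0.04 and 0.24 ± 0.04 SE). Uros, the uroporphyrinogen III synthase gene, rose by 0.35 ± 0.06 in KO and 0.23 ± 0.06 in CARM1i, where the call was lost without CARM1i replicate 2 and without WT replicate 1. Slc25a38, a mitochondrial glycine carrier gene, rose by 0.20 ± 0.06 in KO, and Urod by 0.16 ± 0.06, a call lost in 7 of 20 settings. Cpox, the coproporphyrinogen oxidase gene, fell to 224 in KO, against 301 in WT (-0.42 ± 0.09). Alad, of the second step, rose in CARM1i (0.18 ± 0.04) and was higher there than in KO (0.16 ± 0.04), as was Cpox (0.27 ± 0.09), whose call was lost in 10 of 20 settings. The erythroid enzyme gene Alas2 was not among the genes analysed here.

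Of 12 genes of heme transport and breakdown, 5 rose and 4 fell in KO (75% passed, beside 41.9% of all genes; median 0.16), and 3 rose and 3 fell in CARM1i (50%, beside 19.1%; median 0.11). Hmox2, the constitutive heme oxygenase gene, rose to 1488 in KO and 1350 in CARM1i, against 1201 in WT (0.31 ± 0.04 and 0.17 ± 0.04). The lysosomal heme transporter gene Slc48a1 rose to 5365 in KO and 4653 in CARM1i, against 4035 in WT (log2 fold changes 0.41 ± 0.04 and 0.21 ± 0.04 SE). Hebp1, a heme-binding protein gene, rose to 614 in KO, against 430.4 in WT (0.51 ± 0.07). The biliverdin reductase genes, which act after heme oxygenase, moved apart. Blvrb rose by 0.35 ± 0.06 in KO and 0.26 ± 0.06 in CARM1i, while Blvra fell to 499.5 in KO and 476 in CARM1i, against 596 in WT (-0.25 ± 0.06 and -0.32 ± 0.06). The mitochondrial transporter gene Abcb10 fell in KO (-0.34 ± 0.04) and CARM1i (-0.14 ± 0.04), as did Abcg2, an exporter gene (-0.33 ± 0.05 and -0.18 ± 0.05); the CARM1i calls of Hmox2, Blvrb, Abcb10 and Abcg2 were lost in 1, 1, 3 and 4 of 20 settings. Slc46a1, of heme and folate uptake, rose by 0.56 ± 0.08 in KO. Abcb6, at 9.85 normalized reads in KO and 21 in WT, fell by 1.05 ± 0.37 in KO, a call lost in 5 of 20 settings. In CARM1i against KO, Slc48a1 (-0.21 ± 0.04) and Hebp1 (-0.34 ± 0.07) were lower and Abcb10 was higher (0.20 ± 0.04).

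Of 24 listed genes of iron-sulfur cluster assembly, 23 were tested. In KO 7 rose and 2 fell (median 0.11), or 39.1% past the test beside 41.9% of all genes. Without CARM1i replicate 3 in the shared fit, the KO count was 8 higher and 2 lower. In CARM1i 2 rose and none fell (8.7%, beside 19.1%; median 0.02); 3 rose without CARM1i replicate 3, and the count ran from 0 to 3 over the settings. Hscb, a co-chaperone of cluster transfer, rose to 425 in KO, against 263 in WT (log2 fold change 0.70 ± 0.09 SE), while in CARM1i its 315 gave 0.26 ± 0.09 and did not pass (limma adjusted p = 0.05102). Bola3 rose by 0.40 ± 0.07 and Nubp2 by 0.22 ± 0.04 in KO. The rises in CARM1i of Ciao2b (0.26 ± 0.07) and Fdx1 (0.24 ± 0.07) were each lost in 5 of 20 settings. Hscb (-0.43 ± 0.09) and Bola3 (-0.36 ± 0.07) were lower in CARM1i than in KO, and Nubp1 was higher (0.19 ± 0.05).

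Of 6 other messages described with an IRE, 4 were tested. In KO 1 rose and 1 fell (median -0.13), or 50% past the test beside 41.9% of all genes. In CARM1i 1 rose (median -0.09), or 25% beside 19.1%. Values are given for the others only. Cdc42bpa fell in KO (log2 fold change -0.26 ± 0.04 SE) and gave -0.07 ± 0.04 in CARM1i against WT, which did not pass. Cdc14a gave -0.21 ± 0.14 in KO and Pfn2 gave -0.11 ± 0.07 in CARM1i, neither past the test.

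NRF2, BACH1, their partners and targets were listed because they are known to act on the ferritin and heme oxygenase genes; the list was chosen with the rise of Fth1 and Hmox1 known, so it is no independent evidence. Of 12 listed and tested, 8 rose and none fell in KO (66.7% passed, beside 41.9% of all genes; median 0.13), and 8 rose and none fell in CARM1i (66.7%, beside 19.1%; median 0.14), of which Gclm and Txnrd1 lost the call in 12 and 11 of 20 settings; in KO the call of Gclm was lost in 11. Without CARM1i replicate 3, 7 rose in CARM1i. Bach1 gave -0.00026 ± 0.046 in KO and 0.10 ± 0.05 in CARM1i, and Keap1, which holds NRF2 in check, -0.03 ± 0.05 and 0.04 ± 0.05, none past the test. Nfe2l2, which encodes NRF2, rose to 5706 in KO and 5214 in CARM1i, against 4497 in WT (log2 fold changes 0.34 ± 0.03 and 0.21 ± 0.03 SE). Mafk, a partner of NRF2 and BACH1, rose by 0.34 ± 0.03 and 0.25 ± 0.03, and Srxn1, the sulfiredoxin gene, by 0.33 ± 0.03 and 0.21 ± 0.03. Nqo1, a quinone reductase gene, rose to 936 in KO, against 604 in WT (0.63 ± 0.10), and was lower in CARM1i than in KO (653; -0.53 ± 0.10). Txnrd1 was higher in CARM1i than in KO (0.14 ± 0.03).

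**Figure D4:**
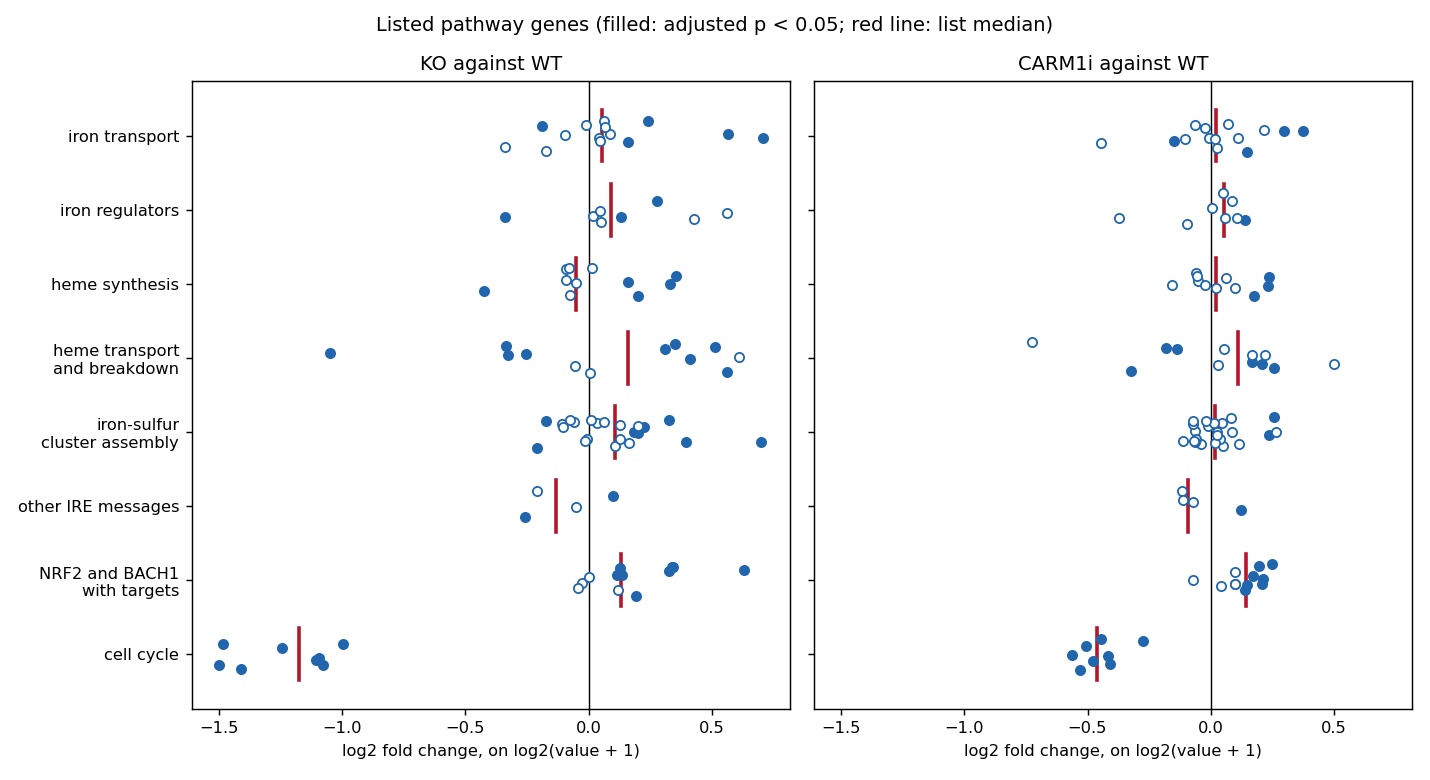
Log2 fold change (horizontal axes, on log2(value + 1)) of every tested gene of the 8 lists in KO against WT (left) and CARM1i against WT (right); points are genes, filled where the adjusted p was under 0.05, and red lines are list medians. The medians of the iron and heme lists lie between -0.13 and 0.16, while the cell cycle genes lie to the left of 0 in both panels.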

How the data were processed

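The series measured poly(A) RNA in 9 libraries made with a stranded kit, per the labels' protocols. Per the submitters' processing notes, the tools named were TopHat2 2.0.10, HTSeq 0.6.0 and DESeq 1.18.0, with the build mm10. The authors deposited a normalized signal per gene, which the values show to be read counts divided by a size factor per library. Every value was a whole multiple of the value of 1 read (100% in each library, tolerance 1e-06 of a read), and size factors ran from 0.925 to 1.16. Recovered reads summed to between 28657018 and 35842771 in a library; intervals cover the spread between libraries. Of the IDs, 16413 of 16428 matched GENCODE M21 without version.

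Genes with a mean under 10 were left out (14560 remained). Comparisons used limma 3.58.1 under R 4.3.3 on log2(value + 1), its prior variance following the mean level, with all 9 libraries and 3 groups in 1 fit; the pseudocount of 1 makes fold changes understate those of low genes. The limma fit was also run on simulated counts with 200 changed genes, fewer than were called in any comparison here. No conclusion is drawn from that run. Members, lists and tests were chosen with earlier results of these data known. The named genes were all members, plus from each list up to 3 genes per comparison by smallest adjusted p and those past 0.05 with at least a 1.5-fold change. Further list genes (Pcbp2, Slc25a38, Urod, Hmox2, Slc46a1, Abcg2, Gclm, Bach1, Keap1) and markers were named after their values were seen. A few genes that this rule names are not reported here. Chi-square per gene between replicates was 2.47 to 8.46, so no library was a copy. Alternatives were other pseudocounts, filters and scalings, edgeR 4.0.16 and DESeq2 1.42.0 on recovered reads, no trend, only the compared groups, a replicate block, and each library left out. On the recovered reads edgeR called 6150 genes for KO over WT, 2821 for CARM1i over WT and 3471 for CARM1i over KO.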

Additional observations from a re-analysis of the deposited data

How the results depend on the processing

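Over 20 alternative settings, 584 of 600 values of single members kept their direction and side of the threshold, 4 lost the call and 8 gained it. The other 4 changed sign near 0 without a call. With a library left out, Tfrc ran from -0.0826 (without KO replicate 1) to 0.0174 (without WT replicate 1) for KO over WT and from -8.1e-05 (without CARM1i replicate 2) to 0.0854 (without WT replicate 1) for CARM1i over WT. Ireb2 for KO over WT ran from -0.0136 (without WT replicate 1) to 0.0618 (without WT replicate 2), and was -0.0122 without KO replicate 2. Fth1, Steap3 and Hmox1 kept every call. Members called ran from 5 to 7 in KO against WT, 4 to 5 in CARM1i against WT and 3 to 5 in CARM1i against KO. Genes called in all were 5243 to 6464, 1797 to 2904 and 2490 to 3682; the 1797 for CARM1i against WT came without the intensity trend, beside 2784 with it, and the cause was not tested. Same-numbered libraries did not deviate together (correlations of -0.087 to 0.0268), so the numbers were treated as names. With the number as a replicate block, 6, 4 and 4 members and 5865, 2553 and 3156 genes were called in these comparisons, and no member's call changed. The median log2 fold change of all genes lay between -0.0211 and 0.0064 in these settings. Slc40a1, the least abundant member, has the widest intervals of the members.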
